A study of Mus musculus with 3 samples.

Results

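Poly(A) sites that lay just past the annotated end of a gene were taken from the site lists of 3 libraries of F121-9 mouse embryonic stem (ES) cells. A site was a member when it lay on 1 of the 19 autosomes and carried the region code DS in the deposited lists. This gave 6582 of 171741 autosomal sites, or 3.83%. The code is not explained in the deposited files, so its meaning was checked against the annotation. Every DS site was placed relative to the closest GENCODE M21 transcript end upstream on its strand, and the distance ran from 1 to 1017 bases, with a median of 262 bases and 9 sites beyond 1000 bases. Of the DS sites, 14 lay in a non-terminal exon annotated on their strand, and at 7 the choice of upstream gene was tied. No DS interval reached an annotated end. By contrast, 1573 sites coded as terminal exon (TE) had their position past an end, by a median of 4 and at most 62 bases, so cleavage a few bases beyond an annotated end falls under either code.

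The libraries came from 1 group, with no treatment or contrasting condition. F121-9 carries 1 genome from the CAST and 1 from the 129 mouse strain. All 3 libraries were at passage 14 and were made from 500 ng of RNA by poly(A) site sequencing (PAS-seq, with the QuantSeq protocol), in which a read marks the 3′ end of a polyadenylated RNA. The labels call the libraries biological replicates and name no separate cultures, so the p-values below rest on the spread between these libraries, which may be technical. For limma, that spread is in part pooled over all sites fitted. Levels are in RPM, reads scaled to the size of the library. Reads at listed sites numbered 10147672, 13513327 and 13040620 in replicates 1, 2 and 3. Replicate 3 had 0 reads on the X and Y chromosomes and the mitochondrial genome, which is not the case in replicates 1 and 2. Its deposited autosomal RPM values run high for that reason of scale. Autosomal reads were 9326090, 12500338 and 13040404 in replicates 1, 2 and 3, against scaling totals of 11085428, 14855484 and 14064461. Shares and ratios within a library are unaffected. All 6 ES markers examined were at 1 RPM or above, with sums of 2171 to 2538 RPM per library. Of the markers of other lineages, the 5 fibroblast genes summed to 128 to 223 RPM, nearly all from Thy1 and Vim, and the mesoderm, neuroectoderm, primitive endoderm and trophoblast lists each summed to at most 13.8 RPM.

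As background, a pre-mRNA is cleaved and polyadenylated after an AATAAA or similar hexamer is bound by the cleavage and polyadenylation specificity factor, with GT-rich or T-rich letters downstream bound by the cleavage stimulation factor. Transcription continues past the cleavage site, so a cell can use a further site downstream and make a longer 3′ untranslated region. Replication-dependent histone mRNAs are the exception: their 3′ ends are cut just after a conserved stem-loop and normally carry no poly(A) tail. Gene annotations give 1 or a few ends per gene, and a gene whose annotated model stops short of the end in use shows its reads at a downstream site.

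The sequences of the sites described below are shown first, 5′ to 3′ on the strand of the site and in mm10 coordinates, with the poly(A) signal hexamer in capitals. They stand for sites within a few bases of the annotated end (Pou5f1, Pgam1, Hspd1 and Fbl), sites farther along (Ppp2cb, Pawr, Zic2, Nkain1, Prdm14 and Zfp42) and small RNA loci (Snora57 and Snord104).
Pou5f1, chr17:35510748-35510777 (+): AATAAAgactgggacacacagtagatagct
Pgam1, chr19:41918635-41918664 (+): gtatAATAAAggagtgatgtgcaatacttt
Hspd1, chr1:55077833-55077862 (-): tttgtgtAATAAAattttgtttaaagtttc
Fbl, chr7:28179245-28179274 (+): ttttctATTAAAagactcatctgtctcccc
Ppp2cb, chr8:33619767-33619796 (+): tactgaacaAATAAAatttccgatttagag
Pawr, chr10:108414817-108414846 (+): gttgccttctATTAAAtatccttggtattt
Zic2, chr14:122480299-122480328 (+): cagaaatatAATAAAatgtgttgaaactgc
Nkain1, chr4:130531362-130531391 (-): catcaaataATTAAAattatcccttagttg
Prdm14, chr1:13113428-13113457 (-): gaaAATAAAcacttatgctactctggtttt
Zfp42, chr8:43294214-43294243 (-): caaaccCATAAAttctgtgcagtcctcttg
Snora57, chr19:8888389-8888418 (-): attattgaatcAATAAAgtctgtgaaccct
Snord104, chr11:106501182-106501211 (+): ccgagcctctgAATAAAgtgtttaaataac
In these runs the hexamer starts 18 to 30 bases before the site; the Pou5f1 run stops 1 base short of its site, and the others end at theirs. Where several hexamers precede a site, 1 is marked. Over all DS sites with AATAAA in the 40 bases before them, 2144 in number, the median start was 20 bases before the site (quartiles 18 and 25), against 21 bases (quartiles 19 and 24) at 15626 TE sites.

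The DS sites were many but carried few reads. Their share of autosomal reads was 1.02%, 1.03% and 1.10% in the 3 libraries (1.05% ± 0.0423, SD, n = 3), from 95245, 128380 and 143089 reads. The TE sites held 93.7% ± 0.263 and the intergenic (IG) sites 1.65% ± 0.0826. Reads were present in every library at 1193 DS sites (18.1%), in 2 libraries at 1207 and in 1 library at 4182. Those 1193 sites held 84.7% of the DS reads. The most read site alone held 3.53%, the first 10 held 20.9% and the first 100 held 54.2%. A total of 1356 DS sites rested on exactly 1 read over the 3 libraries, where a difference between libraries was not detectable.

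The 12 most read sites lay past genes of several kinds, and at 7 of them the upstream gene was protein-coding. Ppp2cb encodes a catalytic subunit of protein phosphatase 2A, and its site lay 355 bases past the annotated end at chr8:33619441. It read 254, 243 and 264 RPM in the 3 libraries. The Ppp2cb terminal exon sites together held 17, 269 and 89 reads, against 2819, 3612 and 3707 at the downstream site, so the downstream site was above the terminal exon in each library. Pawr, a pro-apoptotic leucine zipper protein, had its site 606 bases downstream at 74.96, 134 and 94.9 RPM, with 0, 30 and 45 reads in its terminal exon sites against 831, 1988 and 1335 downstream. The Pawr site lay at no RefSeq terminal exon or end, whereas the Ppp2cb site did.

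Other coding sites among them lay 2 to 11 bases past the end. Pgam1, a glycolytic phosphoglycerate mutase, read 274, 235 and 276 RPM at 4 bases, and Nutf2, which carries Ran into the nucleus, 164, 138 and 154 RPM at 11 bases. In both genes the terminal exon was listed at 0 reads in all 3 libraries, and the bases before the Nutf2 site match those of its pseudogene Nutf2-ps1 at 56 of 60. Hspd1, the mitochondrial chaperonin Hsp60, read 177, 146 and 172 RPM at 2 bases and kept 1408, 1838 and 1133 terminal exon reads beside 1958, 2162 and 2418 downstream. These 3 sites, and that of Pou5f1, lay at a RefSeq terminal exon or within 24 bases of a RefSeq end.

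Pou5f1 (Oct4) is the transcription factor that defines the pluripotent state, and its reads sat 6 bases past its annotated end at chr17:35510772. The site held 1250, 1606 and 1170 reads (113, 108 and 83.2 RPM), and the terminal exon sites held 7, 0 and 0. Replicate 3 was the lowest of the libraries. Nanog and Sox2, the other core factors, had no DS site and were at 723 and 611 RPM on average.

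**Figure D1:**
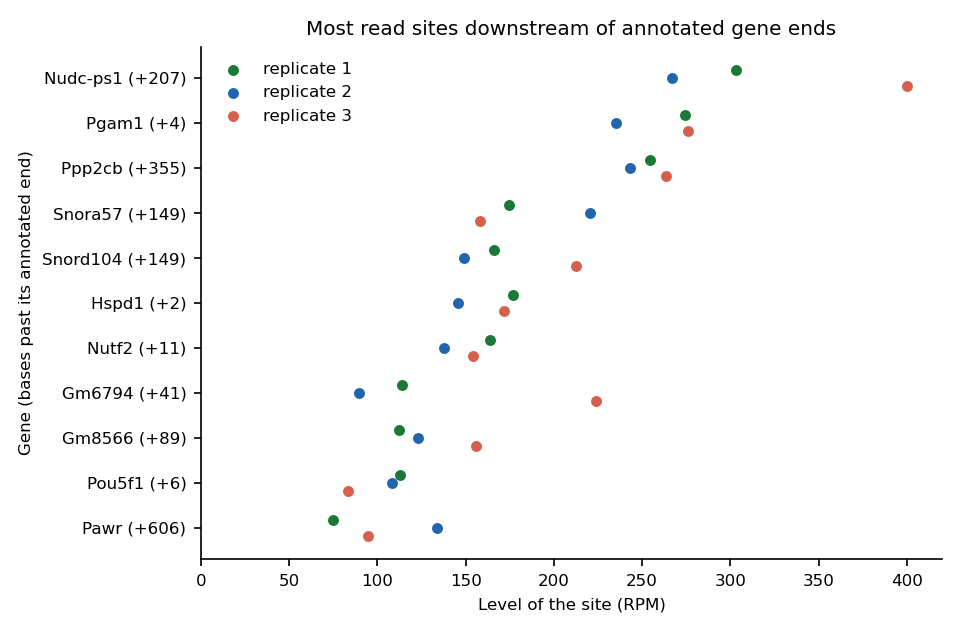
Level in RPM (x axis) of 11 of the 12 DS sites with the highest mean, named by gene and distance past the annotated end (y axis); each point is 1 library. Nudc-ps1 is the highest, with 303, 267 and 400.2 RPM, and replicate 3 stands apart at Gm6794.

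The spread between libraries was larger than counting error at the well-read sites. Among 178 DS sites with at least 100 reads on average, the median chi-square per degree of freedom was 17.1, where counting error alone gives about 1, and the median coefficient of variation was 27.8%, against 20.4% at 9500 TE sites of the same minimum. The site past Gm6794 was highest in replicate 3, with 1261, 1334 and 3148 reads. Gm6158 was more uneven, with 3, 48 and 281 reads. Snora57 instead was highest in replicate 2, at 175, 221 and 158 RPM. Which library was high therefore differed from site to site.

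Distance from the end was related to level and to the signal. Sites 1 to 24 bases past the end made up 10.8% of the DS sites and 16.05% ± 1.20 of the DS reads (SD, n = 3). Sites beyond 750 and up to 1000 bases made up 13.4% of sites and 8.72% ± 0.338 of reads. AATAAA or ATTAAA stood in the 40 bases before 65.6% ± 2.13 of the nearest sites with reads, and before 44.6% ± 1.56 to 51.1% ± 2.83 of the sites in each of the 5 bins from 25 to 1000 bases. RefSeq gave a terminal exon or end at 62.0% of the nearest sites and at 14.8% to 20.3% in the farther bins.

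**Figure D2:**
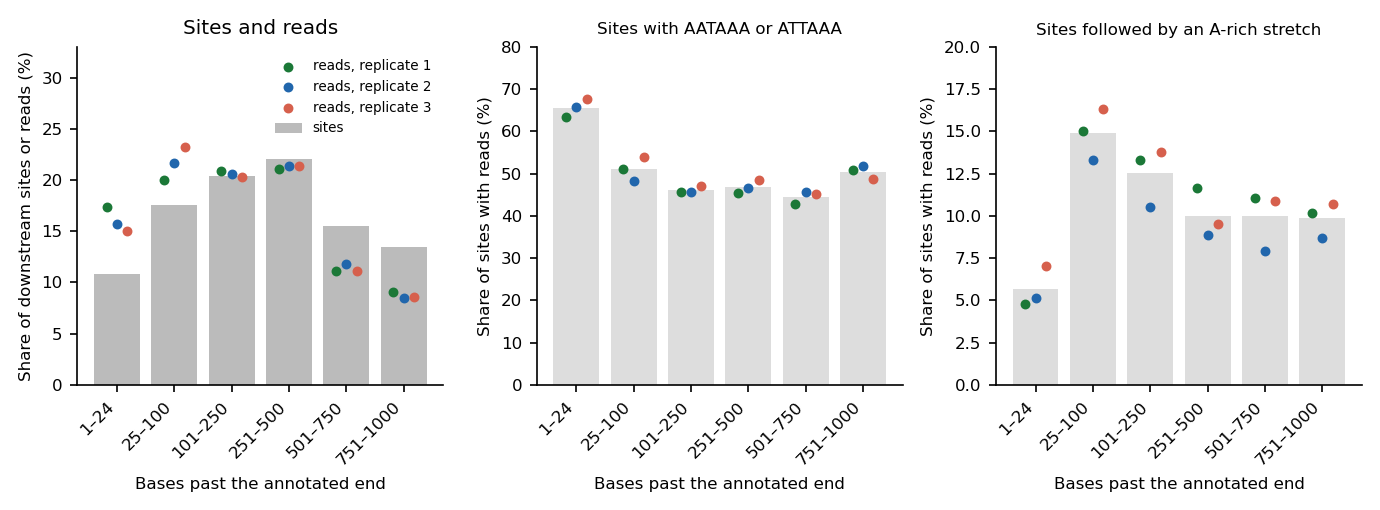
Share of DS sites and DS reads, share of sites with a main signal and share followed by an A-rich stretch (y axes, in %) by bases past the annotated end (x axes); bars are all sites or the mean of 3 libraries, points are libraries, and the 9 sites beyond 1000 bases are not drawn. The 1 to 24 base bin has the highest share with a main signal, 65.6%, and the lowest A-rich share, 5.66%.

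Counted over sites with reads, AATAAA or ATTAAA stood before 48.7%, 49.2% and 50.9% of DS sites in the 3 libraries (49.6% ± 1.17, SD, n = 3), before 46.6%, 43.9% and 46.0% of TE sites (45.5% ± 1.40) and before 37.2% ± 2.88 of IG sites. DS was above both in 3 of 3 libraries. With A-rich sites left out, the difference of DS and TE fell from 4.09 to 0.877 percentage points, in 2 of 3 libraries. Without the DS sites whose bases resemble another gene (described below) it was 2.66, with TE sites not searched for such resemblance. The difference of DS and IG, 12.4 points, was 5.74 over sites read in every library. The exact sign-flip test over 3 libraries, two-sided, gave p = 0.25 for each, adjusted p = 0.25 over 6 comparisons of shares, and 0.25 is the smallest p that 3 libraries allow. Weighted by reads the order of DS and TE turned, with 75.02% ± 0.710 of DS reads and 76.9% ± 0.865 of TE reads behind such a signal. Sites beyond the median distance of 262 bases had it less often than nearer ones by sites, 47.2% ± 0.974 against 51.8% ± 1.80, and by reads, 67.0% ± 1.33 against 80.5% ± 0.837, again in 3 of 3 libraries with p = 0.25 by the exact test on sites. With A-rich sites left out, the difference by sites shrank to -0.801 percentage points, and over sites read in every library to -0.252.

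Single motifs were searched on the strand of the site. AATAAA stood in the 40 bases before 37.2% ± 1.59 of DS sites with reads, against 2.89% ± 0.0472 in a control window of 40 bases that starts just over 100 bases downstream. ATTAAA stood before 14.1% ± 0.458, against 2.58% ± 0.146. The downstream letters TGTGT followed 11.9% ± 0.269 of DS sites, 14.7% ± 0.247 of TE sites and 8.51% ± 0.332 of IG sites, and TTTTT followed 20.1% ± 0.337, 23.4% ± 0.497 and 14.2% ± 0.653. TGTA, the core of the cleavage factor I motif, was before 19.4% ± 0.375 of DS sites against 17.3% ± 0.268 in the control window. Signal share rose with level: it was 27.5% of sites with exactly 1 read over the 3 libraries and 82.8% of the 58 sites with 1000 reads or more.

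RefSeq, a separate annotation of the same genome build, placed a terminal exon or an end within 24 bases at 1435 DS sites (21.8%), yet these held 48.2% ± 1.16 of the DS reads. At TE sites the share was 83.9% of sites and at IG sites 2.73%.

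The second comparison set each downstream site against the terminal exon of its own gene, on log2(RPM + 0.05), with limma and the library as a block. Of the 6582 DS sites, 2706 had no TE site in their gene and 3876 did, of which 1258 passed the minimum mean of 0.5 RPM. The filter was on the downstream site, so sites that are high had to pass. Most were below the terminal exon: 797 were lower (63.4%), 83 were higher (6.6%) and 378 were not called. A call needed a 2-fold ratio and a p under 0.05 after Benjamini-Hochberg adjustment over all sites fitted. limma draws the SE of each site toward a spread shared by all sites fitted. An SE near 0.95, or a site not called, therefore need not mean that the site's own libraries disagreed. Over all 8336 sites fitted, which also include intronic and other exonic sites, 74.4% were lower and 2.00% higher. The balance differed with the level required: at a mean of at least 5 RPM, 62 of 171 DS sites were higher (36.3%) and 74 lower (43.3%). That fit was made anew on these sites, so its pooled spread and adjustment changed as well, and 47 of the 62 were among the 83. The median log2 ratio of the DS sites was -4.53, against -5.50 for 4473 intronic and -5.75 for 2605 other exonic sites. edgeR's quasi-likelihood test on recovered reads called 24 DS sites higher and 419 lower, against 0.504% and 36.4% of all sites, and all 24 were among the 83. Without replicate 2, limma called 0 in either direction, although 626 DS sites kept an unadjusted p under 0.05, while without replicate 1 it called 38 higher and 345 lower and without replicate 3 54 higher and 527 lower. Among the sites named below with a call, those of Zfp42, Cpsf7 and Pcf11 were lost with edgeR (adjusted p = 0.0675, 0.0590 and 0.0616). The calls of Asns, Lefty2, Ppp2cb, Snora57, Snord104, Gm5165, Snrnp200, Pabpn1, Cpsf7, Pcf11 and Zfp42 were lost without replicate 1, and those of Ppp2cb, Lefty2, Gm5165, Cpsf7 and Pcf11 without replicate 3.

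**Figure D3:**
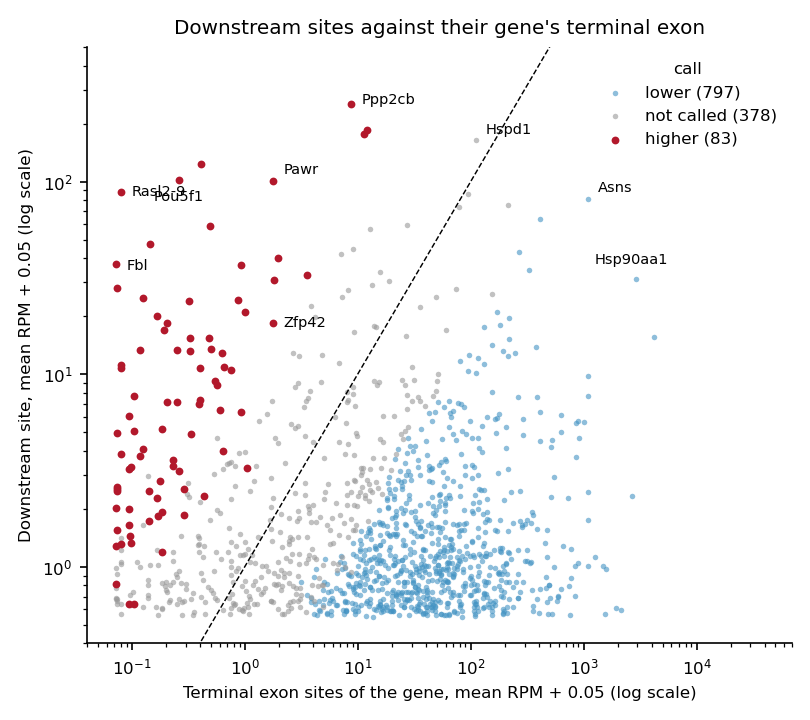
Mean RPM + 0.05 of each of the 1258 fitted DS sites (y axis, log scale) against the summed terminal exon sites of its gene (x axis, log scale); colours are the limma calls and the dashed line marks equal levels. The 83 sites called higher lie to the left of the line, and Hspd1 lies near it and was not called.

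Of the 83 sites called higher, 52 lay past coding genes (62.7%) and 21 past pseudogenes (25.3%), against 88.6% and 4.77% of all 1258 fitted DS sites. AATAAA or ATTAAA preceded 67 of the 83 (80.7%) and 49 (59.04%) lay at a RefSeq position, against 54.1% and 37.4% of the fitted sites. The sites called higher also had a median level of 6.96 RPM, against 0.962 RPM for those called lower, and the part of level in the signal share was not tested. Among the 52 coding sites, 43 were at a RefSeq position and 9 were not. Of the 83, 21 (25.3%) lay within 24 bases of the end and 17 (20.5%) more than 500 bases away, against 10.7% and 30.4% of the fitted sites. A terminal exon at or near 0 makes the fitted ratio depend on the pseudocount, so the reads are given beside each ratio.

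The largest ratio was at Rasl2-9, a Ran-like gene known from testis, with 946, 1011 and 1556 reads 905 bases downstream against 1, 0 and 0 in the terminal exon (log2 ratio 10.26 ± 1.00, SE). Of its last 60 bases before the site, 59 match a transcript of another gene, Bc1, so the origin of these reads is uncertain. Pou5f1 followed, at 9.72 ± 1.19 (adjusted p = 0.00801, limma). Fbl, the nucleolar methyltransferase fibrillarin, had 482, 485 and 498 reads at 5 bases against 0, 1 and 0 (9.12 ± 0.997). In RPM the Fbl site was at 43.5, 32.6 and 35.4.

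Nkain1, an interactor of the sodium pump, read 600, 668 and 594 at 240 bases against 0, 1 and 3. Crygd, a lens crystallin gene, had 207, 376 and 432 reads at 29 bases against 1, 2 and 0. These genes were named for their large ratios, so it follows from that choice that their libraries did not overlap between the downstream site and the terminal exon. Zfp146, a zinc finger gene, read 134, 166 and 139 at 779 bases against 1, 0 and 0. Gm5165, a long noncoding RNA, read 273, 372 and 310 at 276 bases against 0, 12 and 0. The 10 largest ratios also included the processed pseudogenes Tpt1-ps3 and Gm7964. Tpt1-ps3 had 228, 402 and 512 reads against 0, 0 and 1, and Gm7964 168, 389 and 199 against 0, 7 and 0. Of the 60 bases before these sites, 52 match Tpt1 and Hnrnpk, respectively. The terminal exon sites of those genes were at 157 and 408 RPM on average. At Fbl and Gm5165, 51 bases match Gm6211 and BC002059. These matches fall below the 54 bases set further on for resemblance. Chosen after its values were seen, Zic2, a zinc finger transcription factor, had 330, 580 and 579 reads 476 bases past the end against 3, 22 and 12 (5.58 ± 1.00, adjusted p = 0.00822, limma).

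Some well-read downstream sites sat beside a terminal exon that was as high or higher; those named here were also chosen after their values were seen. Stt3b, a catalytic subunit of the oligosaccharyltransferase, had 982, 1343 and 1109 reads at 110 bases and 854, 1512 and 1521 in the terminal exon, so the order differed between libraries (log2 ratio -0.14 ± 0.96, not called). Yeats4, a chromatin reader, had 771, 1173 and 1022 reads against 791, 1320 and 1064. Asns, asparagine synthetase, had 10 DS sites, as many as any gene. Its most read one, 459 bases downstream, held 866, 1309 and 1100 reads against 10939, 14728 and 18232 (-3.73 ± 0.95, adjusted p = 0.0169, limma). That site has no main signal and no RefSeq end, and its last 30 bases are shown with CATAAA in capitals.
Asns, chr6:7674710-7674739 (-): acacagcctttttcCATAAAacttcatttc
Lefty2, chr1:180899385-180899414 (+): tcgaaaaattgcctgtcagtttgtactcgg
Lefty2, a Nodal inhibitor expressed in ES cells, had a site 311 bases downstream with 534, 261 and 543 reads against 3757, 4983 and 4505, and the deposited lists give no hexamer for it. Hsp90aa1, the inducible Hsp90, had 313, 562 and 391 reads at 195 bases against 32546, 38444 and 46362 (-6.56 ± 0.96).

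The 5 farthest sites with at least 5 RPM in every library lay 953 to 1006 bases past the end. The site past 2410003L11Rik, a noncoding gene, was 1006 bases away with 357, 307 and 475 reads. Psors1c2 had 73, 136 and 158 reads at 988 bases against 68, 39 and 0 in its terminal exon. Snrnp200, a helicase of the spliceosome, had 63, 189 and 82 reads at 987 bases and far more in its terminal exon, 1463, 1970 and 2798. Zscan25 had 183, 279 and 372 reads at 960 bases and its terminal exon was listed at 0. Ranbp2, a nuclear pore protein, had 7 DS sites. The one at 953 bases held 110, 90 and 103 reads. A nearer one at 545 bases, chosen after its values were seen, held 645, 800 and 938. That nearer site was above the 285, 399 and 407 reads of the Ranbp2 terminal exon (log2 ratio 1.13 ± 0.95, not called).

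At the level of genes, 5220 genes had a DS site, of which 4224 had 1, 760 had 2 and 236 had 3 or more. A total of 2341 of them had no TE site. Of 8161 genes with at least 100 reads on average over terminal exon and downstream sites, 2039 (24.98%) had a DS site. Their median downstream share was 0.912% of reads, 446 genes reached 5% and 147 reached 50%. With DS reads in every library and the same 100-read minimum, 595 genes remained, and 68 of these had a share of 100%. Of the 68, 45 were pseudogenes and 12 were coding.

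The 10 most read genes at 100% were Nudc-ps1, Pgam1, Nutf2, Gm6794, Gm8566, 5830417I10Rik, Gm6867, Foxh1, Gm6395 and Gm6807. Foxh1, the partner of Smad proteins in Nodal signalling, had 655, 1029 and 862 reads at its main site, 394 bases past the end and at a RefSeq position. The coding genes listed at 100% included Rps6 with 97, 176 and 138 reads and Actg1, cytoplasmic gamma actin, with 120, 77 and 189 (Actg1 was named after its values were seen). Both are genes that every cell uses heavily, and both have their terminal exon listed at 0. How the authors treated reads that map to several places is not given in the sources used here, so a share of 100% is a statement on the listed sites only.

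**Figure D4:**
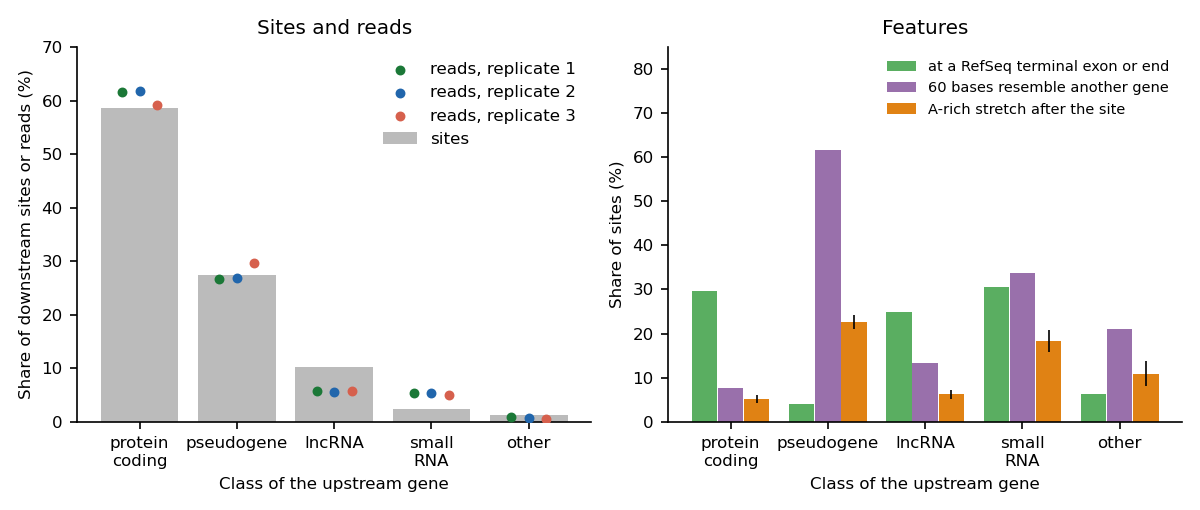
Left, share of DS sites (bars) and of DS reads in each library (points), in %, by class of the upstream gene; right, share of sites in each class at a RefSeq position, resembling another gene, or followed by an A-rich stretch (mean ± SD over 3 libraries). Pseudogenes hold 27.5% of the sites, of which 61.6% resemble another gene.

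Pseudogenes were the second class of upstream gene. The 6582 sites lay past protein-coding genes (3860 sites, 60.8% ± 1.503 of DS reads), pseudogenes (1807 sites, 27.7% ± 1.77), long noncoding RNAs (674 sites, 5.63% ± 0.138), small RNAs (160 sites, 5.19% ± 0.245) and other types (81 sites, 0.674% ± 0.139). Of the pseudogene sites, 1660 were past processed pseudogenes, which are copies of spliced mRNAs. The 60 bases before a site matched a transcript of another gene at 54 or more bases for 61.6% of pseudogene sites and 7.54% of coding sites. An A-rich stretch, defined as at least 12 A in the 20 bases after the site or a run of 6 A, followed 22.7% ± 1.54 of pseudogene sites and 5.17% ± 0.878 of coding sites. Oligo(dT) can prime on such a stretch in the RNA, and its part in these reads was not tested.

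Nudc-ps1, a processed pseudogene of the nuclear movement gene Nudc, held the most read DS site of the autosomes, 207 bases past its annotated end. It had 3362, 3965 and 5628 reads (303, 267 and 400.2 RPM). The terminal exon sites of Nudc itself held 25, 16 and 26 reads. Of the 60 bases before the site, 59 match a Nudc transcript, and an A-rich stretch follows the site. The 20 bases after the next such pseudogene site, past Gm8566, are shown with the A run in capitals.
Gm8566 after the site, chr6:67206173-67206192 (+): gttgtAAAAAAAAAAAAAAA
The Gm8566 site, 89 bases past the end of that processed pseudogene, had 1247, 1829 and 2196 reads, and the A run has 15 bases.

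Other pseudogene sites stood beside a well-read gene of like sequence. Gm6867 had 662, 848 and 1262 reads and matched Rps15, of the small ribosomal subunit, at 57 of 60 bases, and the Rps15 terminal exon held 8328, 11340 and 9907. Gm6395 had 697, 872 and 958 reads and matched the co-chaperone gene Dnajb6 at 60 of 60, with 4834, 6172 and 6092 reads there. Gm6807 had 532, 1067 and 761 reads and matched Rpl6 at 48, below the 54 set here. In these pairs the pseudogene site was the lower one in every library. At Gm6794, as at Nudc-ps1, it was the higher: its 1261, 1334 and 3148 reads stood against 3, 2 and 2 in the terminal exon of Gm11361, which matches at 59 of 60 bases. Gm11361 also had a DS site 5 bases past its own end, with 23, 18 and 92 reads. Only 1 match is given per site, and whether Gm11361 is the parent gene was not tested. Over all DS sites, the 1565 that resemble another gene held 25.3% ± 0.801 of the DS reads.

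A-rich stretches followed 11.7%, 9.46% and 11.9% of DS sites with reads and 6.13%, 6.03% and 6.22% of TE sites (11.01% ± 1.34 against 6.13% ± 0.0934), higher in 3 of 3 libraries with p = 0.25 by the exact sign-flip test. Without the DS sites that resemble another gene, an alternative chosen after seeing the data, the difference turned to -0.776 percentage points. DS was then higher in 1 of 3 libraries. TE sites were not searched for such resemblance, so only the DS side of this comparison was filtered.

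The reads past small RNA genes were concentrated at 2 sites. The 160 sites had a median of 0.104 RPM, against 0.247 RPM past coding genes, and Snora57 and Snord104 held 73.8%, 80.7% and 74.1% of the reads of the class. Snora57 and Snord104 are small nucleolar RNAs, which guide the modification of ribosomal RNA, and both had a site 149 bases past their end. The Snora57 site held 1935, 3277 and 2222 reads and lay in the RefSeq gene 5730408K05Rik, and its last 60 bases matched a Zfp467 transcript at 54. The Snord104 site held 1839, 2217 and 2991 and lay in the RefSeq gene Gm36220. The terminal exon sites of both were lower in every library, with 110, 160 and 219 reads for Snora57 (log2 ratio 3.94 ± 0.97, adjusted p = 0.0150, limma) and 137, 142 and 165 for Snord104 (3.96 ± 0.95, adjusted p = 0.0142). The site past the unprocessed pseudogene 5830417I10Rik, at 405 bases, held 944, 951 and 1845 reads.

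The downstream share of reads was higher in noncoding genes, pseudogenes included, than in coding genes. It was 4.17%, 4.88% and 5.56% of terminal exon plus downstream reads in noncoding genes and 0.737%, 0.730% and 0.750% in coding genes, higher in 3 of 3 libraries (p = 0.25 by the exact sign-flip test). The pooled value rests on part of the genes, since only 24.98% of genes with at least 100 reads had a DS site. For that reason the median over such genes, with a difference of 0, cannot tell the classes apart. Without the DS sites that resemble another gene, the pooled difference fell from 4.13 to 1.67 percentage points, with all TE sites kept.

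Replication-dependent histone genes had a downstream share of 14.5%, 15.6% and 17.9% of their few polyadenylated reads (16.02% ± 1.77), against 0.737% ± 0.00970 for the other coding genes (3 of 3 libraries, p = 0.25 by the exact sign-flip test). Of 50 such genes with reads, 20 had a DS site, 27 sites in all. The reads were few, 158, 230 and 308 per library. A search for the stem-loop letters GGNNCTNNTNAGNNCC, from 60 bases before to 5 bases after the site on its own strand, found them at 10 of the 27 sites. The last letter of the stem lay 3 to 6 bases before the site, and the 10 sites lay 14 to 59 bases past the annotated end. They held 60.1%, 78.3% and 72.1% of the histone DS reads, and 0 of the 10 had AATAAA or ATTAAA, against 6 of the other 17. Over all sites the letters were found at 11 of 6582 DS sites (0.167%), at 33 of 56377 TE sites (0.0585%) and at 4 of 39849 IG sites (0.01004%); the DS site outside the histone list was past Tmem69. The search was chosen after the sequences were seen.
Hist1h2ai, chr13:21716829-21716858 (+): aatcaccaaaGGCTCTTTTCAGAGCCactc
Hist1h3h, chr13:21718085-21718114 (+): gtttttcaaaGGCTCTTTTCAGAGCCaccc
The capitals mark the 16 stem-loop letters. Hist1h2ai, an H2A gene, had 18, 39 and 114 reads 44 bases past its end, and Hist1h3h, an H3 gene, 27, 43 and 10 at 45 bases. Replicate 3 was the highest library at Hist1h2ai and the lowest at Hist1h3h. Hist2h3b had 10, 38 and 19 reads at 14 bases and Hist1h3i 2, 11 and 48 at 45 bases. In all 4 genes the terminal exon was listed at 0.

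Among 22 core and naive pluripotency genes, 8 had a DS site (36.4%) and 4 had a downstream share above 50%. Of 14042 coding genes with reads, 2931 had a DS site (20.9%) and 584 (4.16%) a share of 50% or more. The same background holds for the lists that follow and for the 20 of 50 histone genes above (40%). It takes in every coding gene with a read and was not matched to the lists for level. Of the histone genes, 14 had a share of 50% or more, with Hist1h2ak at exactly 50%. Some of these rest on very few reads, such as Hist1h2bb with 3 and Hist1h2bn with 2 downstream reads, in replicate 1 alone. Beside Pou5f1, with 99.4%, 100% and 100%, the pluripotency genes above 50% were Prdm14, Zfp42 and Dppa5a, the last with 11 downstream reads in replicate 2 alone. Prdm14, a repressor that protects the naive state, had a share of 83.2%, 83.1% and 88.6%, and 351, 554 and 913 reads at its main site, 29 bases past the end, against 89, 150 and 130 in the terminal exon (log2 ratio 2.22 ± 0.96, adjusted p = 0.0824, limma, not called). Zfp42 (Rex1), a naive state marker, had 172, 303 and 275 reads at 849 bases against 15, 10 and 45 (3.63 ± 1.03, adjusted p = 0.0231, limma, a call lost with edgeR and without replicate 1 or 2). Its site lay at no RefSeq position and has CATAAA but not AATAAA or ATTAAA. Tdh, threonine dehydrogenase, had 71, 29 and 78 reads at 929 bases beside 9095, 13374 and 13937, a gene share of 0.582% ± 0.224.

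Of 23 cleavage and polyadenylation genes, 9 had a DS site (39.1%) and none had a mean share above 50%. Cpsf7, a cleavage factor I subunit, had a share of 6.38%, 14.04% and 11.8%, from a site 76 bases past the end. Pcf11, a termination factor, had 25, 19 and 24 reads at 81 bases against 205, 349 and 253 (log2 ratio -3.51 ± 0.97, adjusted p = 0.0215, limma). Pabpn1, the nuclear poly(A)-binding protein, had 25, 56 and 120 reads at 758 bases against 1000, 1317 and 1341. Wdr33, which binds the AATAAA signal, had a share of 3.00% ± 0.466. All 4 of these sites were called lower than the terminal exon by limma and lay at RefSeq positions, but the calls of Cpsf7 and Pcf11 were lost with edgeR and on leaving out any 1 library.

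Of 77 cytoplasmic ribosomal protein genes with reads, 35 had a DS site (45.5%) and 4 a share above 50%, and pooled over the list the downstream share was 0.204% ± 0.0168. Rps12 had 207, 202 and 205 reads at 41 bases against 49027, 60579 and 57960 (log2 ratio -8.08 ± 0.95), and Rpl17 35, 128 and 72 at 82 bases against 8048, 14008 and 14485. The most read Rps6 site, at 194 bases, held 40, 113 and 66 reads and was followed by an A-rich stretch.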

How the data were processed

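Each of the 3 libraries was deposited as a list of 178115 sites. Per the text files that the authors deposited beside the lists, sites were made from mm10 alignments with GENCODE M21; for the aligner, the site caller and multiply mapping reads, the method is not given in the sources used here. The files carry no header line. The deposited value of a site is RPM, scaled by the authors to the reads of the library. The deposited fraction of libraries with reads and the mean RPM matched recomputed values at 178115 sites. Whole reads were recovered from RPM at 100% of values within 0.01 reads, with denominators of 11085428, 14855484 and 14064461. No molecular identifiers are stated, so reads may not be independent molecules.

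Sequence was read from GRCm38. All 181936 deposited hexamers were found at their place. The 60 bases before DS sites were aligned with blastn 2.17.0 (word size 16) to M21 transcripts of other genes, and RefSeq positions came from its GRCm38 annotation. Ratios were tested with limma 3.58.1 in R 4.3.3 (minimum mean 0.5 RPM, pseudocount 0.05 RPM), fitted over 8336 sites with the library as a block because both values of a ratio come from 1 library. This ratio understates differences of low sites. edgeR 4.0.16 on recovered reads was an alternative and called 42 sites higher and 3036 lower over all sites. The limma fit was tested on simulated data with known ratios. It called higher 49 of 50 sites with a true log2 ratio of 4 and 33 of 50 with 2. It called lower only 22 of 50 sites with -4 and 17 of 50 with -2. Of 8136 sites with a true ratio of 0, 1 was called higher and 1 lower. In the simulation nearly all sites had a true ratio of 0, whereas 74.4% of the real sites fitted were called lower. Known ratios were set only at sites of genes with a well-read terminal exon. These rates need not hold for the reported fit, and a site not called can still differ. Shares were compared with exact sign-flip tests over 3 libraries. The alternatives were other pseudocounts, filters, terminal exon definitions and sites left out, and libraries left out.

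Members, gene lists and tests were chosen with earlier results of these data known. Named sites were the 12 with the highest mean, the 10 largest ratios called higher, the 10 genes of highest share, the 5 farthest, the 5 most uneven and up to 4 per list; others are marked where named, and 1 site and 1 sequence are not reported here. DS sites on the X chromosome were left out of all comparisons.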

Additional observations from a re-analysis of the deposited data

Results flagged for a closer look

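Signal was also present in data outside the comparisons, at the 317 DS sites on the X chromosome. They held 8402 reads in replicate 1 and 10557 in replicate 2, above the limit of 3 reads that a count of 0 allows. Replicate 3 was listed at 0 reads there, as at all X-linked sites. Outlying samples were not tested, since the group has 3 libraries.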

How the results depend on the processing

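The share of autosomal reads at DS sites, 1.05%, was 0.960% without A-rich sites, 0.919% over sites read in every library, 0.783% without sites that resemble another gene and 0.952% without the 3 most read sites (these last 2 chosen after seeing the data). Under a rule of 1000 bases downstream of any annotated end it was 8.94%, of which 7.89% came from 1573 TE-coded sites whose position is past the end. Leaving out 1 library gave 1.02% to 1.06%. Reversals were seen in 2 differences. The signal share of DS minus TE went from 4.09 to -1.88 percentage points when weighted by reads. The A-rich share of DS minus TE went from 4.88 to -0.776 without DS sites that resemble another gene. Only DS sites were searched for such resemblance, so TE sites of like sequence stayed in. The noncoding minus coding difference of 4.13 was 1.67 without DS sites that resemble another gene. As a median over genes it was 0, which cannot tell the classes apart because most genes had no DS site. The other differences of shares kept their sign, and leaving out 1 library turned none. Sites called higher, 83 as reported, numbered 24 with edgeR, 52 beyond 50 bases, 62 of 171 at a mean of at least 5 RPM, 110 of 3876 with no filter and 108 with a pseudocount of 0.5 RPM; leaving out 1 library gave 0 to 54. Sites called lower, 797 as reported, numbered 419 with edgeR, 3033 of 3876 with no filter and 74 of 171 at a mean of at least 5 RPM; leaving out 1 library gave 0 to 527. Without the library as a replicate block, 97 were higher and 843 lower. Of 40 named sites fitted, only Stt3b changed sign, to 0.34 with the most read terminal exon site and to a range of -0.31 to 0.015 when 1 library was left out, and calls were lost at 13, 30 and 7 without replicates 1, 2 and 3, at 4 with edgeR and at 2 with the most read terminal exon site; the cause was not tested. Depth limits the 1356 sites with 1 read in all.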
